A study of Mus musculus with 48 samples.

Results

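The 10 genes Cyr61, Ctgf, Ankrd1, Ajuba, Amotl1, Amotl2, Lats2, Yap1, Wwtr1 and Tead1 encode the transcriptional co-activators YAP and TAZ, a TEAD transcription factor, targets of these proteins and regulators of the Hippo pathway. They were found by gene symbol among the 55335 gene rows of each of 4 expression tables. The genes were chosen by earlier results of these same libraries: Cyr61, Ajuba and Amotl2 had already been picked out by their fold changes in cells given conditioned medium, and Cyr61 also by its difference between the control groups. Those values are therefore given below as a description: no p-value is printed for them, and where the text says which of these genes passed limma's threshold, nothing is read from it. The symbol Lats2 stands in 2 rows. The row whose identifier GENCODE names Lats2 was used, and the other, which GENCODE names Gm49361, was above 0 in 1 of 27 libraries.

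RNA was sequenced from mouse bone and from MLO-Y4, an immortalised mouse cell line with osteocyte features that stands for osteocytes, the cells buried in bone matrix. Values of 27 libraries were used, 3 in each of 9 groups, and 21 of the 48 samples were not analysed here. All samples are labelled wild type on a C57BL/6J background. MLO-Y4 cells received 2 µM ADP for 2 h or no ADP. In a separate experiment they received 50 µM oligomycin A, an inhibitor of the mitochondrial ATP synthase, or its vehicle DMSO for 1 h, and supernatants of both cultures were placed for 2 h on other, normally cultured MLO-Y4 cells. Bone fragments of 1-month-old mice were cultured for 48 h after a change to medium in which bone fragments had been kept for 24 h; the groups are named medium transfer and control, and the labels do not say which group received medium of young or of old bone. Cortical bone of 18-month-old mice had no treatment. Nothing in the labels tells whether the 3 replicates of a group came from different cultures or mice, and the p-values below speak only of the scatter among the libraries at hand, part of which may be technical. MLO-Y4 is a single line, and what holds for it need not hold for osteocytes of other origin.

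YAP (gene Yap1) and TAZ (gene Wwtr1) do not bind DNA themselves. In the nucleus they join TEAD factors such as TEAD1 and switch on target genes, among them the secreted matricellular proteins CYR61 and CTGF and the muscle and stress-response protein ANKRD1. The Hippo kinase LATS2 phosphorylates YAP and TAZ and keeps them out of the nucleus, angiomotin-like proteins AMOTL1 and AMOTL2 hold them at junctions and actin filaments, and the LIM protein AJUBA restrains LATS kinases. Several of these regulators are themselves targets, which closes a feedback loop. In bone cells the pathway is known for its response to mechanical load and matrix stiffness. The mRNA levels measured here do not report the phosphorylation or location of YAP and TAZ.

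Since TEAD factors bind the letters GGAATG, the promoters of the genes were read for them, because they show which members carry the site close to the start. RefSeq promoter entries (GRCm38.p6) matched 8 of the 10 members: Cyr61, which RefSeq calls Ccn1, Ankrd1, Ajuba, Amotl1, Amotl2, Lats2, Yap1 and Wwtr1. Ctgf and Tead1 have no entry there. The 250 bases before the start are shown 5′ to 3′ on the strand of the gene, with GGAATG, or its reverse complement CATTCC, in capitals.
Cyr61, chr3:145649986-145650235, minus strand: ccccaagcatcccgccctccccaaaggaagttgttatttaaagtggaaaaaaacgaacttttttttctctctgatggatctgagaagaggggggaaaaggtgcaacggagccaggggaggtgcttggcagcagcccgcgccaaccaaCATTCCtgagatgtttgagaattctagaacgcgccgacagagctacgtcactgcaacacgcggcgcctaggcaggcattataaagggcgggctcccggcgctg
Ankrd1, chr19:36119845-36120094, minus strand: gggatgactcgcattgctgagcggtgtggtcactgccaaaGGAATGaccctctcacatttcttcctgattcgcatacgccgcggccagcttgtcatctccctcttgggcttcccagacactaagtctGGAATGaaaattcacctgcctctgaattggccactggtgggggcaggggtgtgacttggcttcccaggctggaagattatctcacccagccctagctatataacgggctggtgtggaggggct
Ajuba, chr14:54577662-54577911, minus strand: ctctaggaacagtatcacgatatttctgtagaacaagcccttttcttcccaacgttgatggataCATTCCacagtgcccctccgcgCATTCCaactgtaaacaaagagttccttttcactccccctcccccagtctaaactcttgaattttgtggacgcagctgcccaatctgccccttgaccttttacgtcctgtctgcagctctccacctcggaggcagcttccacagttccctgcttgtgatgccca
Amotl2, chr9:102717554-102717803, plus strand: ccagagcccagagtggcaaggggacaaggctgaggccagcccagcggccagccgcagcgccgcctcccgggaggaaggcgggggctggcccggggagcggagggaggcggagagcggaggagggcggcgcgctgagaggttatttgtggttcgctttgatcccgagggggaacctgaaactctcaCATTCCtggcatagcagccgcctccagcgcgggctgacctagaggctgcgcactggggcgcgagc
The co-activator genes each held 1 match, shown with 20 bases on either side.
Yap1, chr9:8004712-8004757, minus strand: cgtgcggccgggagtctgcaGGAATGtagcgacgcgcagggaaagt
Wwtr1, chr3:57576021-57576066, minus strand: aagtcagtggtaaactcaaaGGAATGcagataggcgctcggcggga

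The letters were present in 6 of the 8 matched members, against 12.6% of all 32851 promoter entries searched over the same 250 bases and both strands. Ankrd1 held them at -210 and -123, and Ajuba at -186 and -164, counted to the first letter on the strand of the gene with the base before the start as -1; 1.02% of all entries held 2 or more matches. Cyr61 held them at -103 and Amotl2 at -65. Amotl1 and both entries of Lats2 had none. The cyclic AMP response element TGACGTCA (1.55% of all entries), the AP-1 letters TGANTCA (6.75%) and the CArG box bound by SRF (1.47%) were found in 0 of the 8 on either strand; no TEAD match of a member therefore overlapped one of them. A match of letters is a description of sequence and not of binding, and sites farther away were not searched. The members were counted by gene, over 10 entries, and the shares of all promoters by entry. The set was put together as YAP and TEAD genes, so nothing is read from its share of TEAD letters.

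The approximate depth read from steps in low values was 15.0 to 25.4 M fragments in MLO-Y4, and at Cyr61 it corresponds to between 4501 and 49917 fragments in an MLO-Y4 library. Sost was at 0 in all 18 MLO-Y4 libraries, and the osteocyte markers Dmp1, Mepe and Fgf23 were at or near 0, while Pdpn, Phex and Gja1 were above 1 FPKM, so 3 of 7 osteocyte markers were present in the line. In vehicle replicate 2, ribosomal RNA-like and 7S rows took up 27.2% of the summed FPKM; the range over the remaining 11 libraries of that experiment was 0.211% to 0.414%. The levels below include that library, and the fold changes of Cyr61 without it stand beside the results. FPKM, fragments per kilobase of transcript scaled to library size, corrects for length, so levels can be set against each other between genes.

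In MLO-Y4 cells Cyr61 was the most abundant of the 10 transcripts in every group, and its group means ran from 158 FPKM with vehicle supernatant to 1209 FPKM with oligomycin A. Ctgf came next, from 57.5 to 123 FPKM, followed by Wwtr1, from 47.2 to 49.6 FPKM. Wwtr1 exceeded Yap1 4.32-fold without ADP and 5.26-fold with vehicle, so the transcript of TAZ was more abundant than that of YAP (means of 3 within-library ratios, SD 0.39 and 0.19). Amotl1 and Amotl2 stood between 14.3 and 37.8 FPKM, Lats2, Yap1 and Ajuba between 4.32 and 12.9 FPKM, and Tead1 and Ankrd1 at the low end between 2.21 and 5.12 FPKM. Neighbours in this order were mostly separate in every library. In both ADP groups Lats2 overlapped Yap1, and with 2 µM ADP also Ajuba. With vehicle supernatant, Ctgf overlapped Wwtr1 and Lats2 overlapped Yap1, and Tead1 overlapped Ankrd1 in 3 of the 4 groups of the oligomycin experiment, all but oligomycin A itself. Between the experiments, whose tables were made separately and are set side by side with no test, cells without ADP had 268 ± 8.23 FPKM of Cyr61 and cells with vehicle 561 ± 15.8. In the same order Ajuba was 12.9 ± 0.52 and 5.40 ± 0.47, Amotl2 37.8 ± 0.78 and 16.9 ± 0.77, and Ctgf 123 ± 2.62 and 74.4 ± 4.96 FPKM (SD, n = 3 each). Yap1, Wwtr1 and Tead1 were within 8.98 to 11.5, 47.2 to 49.5 and 3.21 to 3.35 FPKM in these groups.

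**Figure D1:**
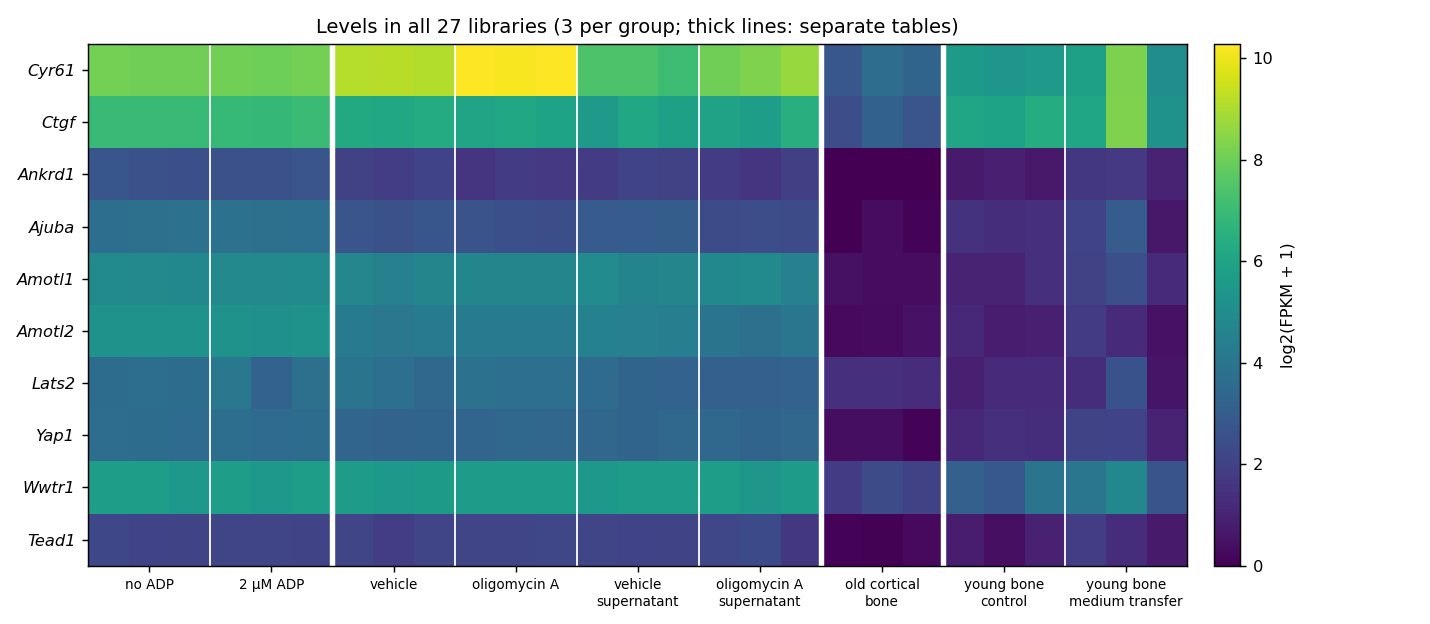
Levels of the 10 genes (rows) in all 27 libraries (columns, 3 per group, in replicate order), coloured by log2(FPKM + 1); thick white lines divide tables that were made separately. Cyr61, Ctgf and Wwtr1 are the brightest rows in MLO-Y4 cells, and the group means of all genes but Lats2 are lowest in old cortical bone, where Cyr61 averaged 8.93 FPKM.

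Oligomycin A was compared with vehicle to ask what inhibition of ATP synthase does to these transcripts within 1 h. Cyr61, whose matricellular product binds integrins, was the only member that passed the test. It was 567, 572 and 543 FPKM with vehicle and 1244, 1170 and 1212 FPKM with oligomycin A. Every treated library was above every vehicle library, and the log2 fold change was 1.11 ± 0.14 (SE, 95% interval 0.81 to 1.40; limma adjusted p = 0.000848 over all genes). Leaving out vehicle replicate 2 gave 1.12. Cyr61 had been picked partly by a comparison that holds the same vehicle libraries, so its p-value is not independent of that choice. Thus 1 of 10 members was called higher and 0 lower, where 3.71% of the 11902 tested genes were called higher and 1.63% lower. The gene lies on chromosome 3 (145646976 to 145649981, minus strand, GRCm38).

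The other classic targets, Ctgf and Ankrd1, were not called. Ctgf, a close relative of Cyr61, was 74.9, 69.2 and 79.1 FPKM with vehicle and 63.9, 68.0 and 60.7 with oligomycin A. All treated values lay below all vehicle values, but the log2 fold change of -0.21 ± 0.18 did not pass (limma adjusted p = 0.528). Ankrd1 was 2.93, 2.69 and 3.15 FPKM with vehicle and 1.90, 2.50 and 2.23 with oligomycin A, again without overlap, at -0.29 ± 0.12 (limma adjusted p = 0.165). Without overlap 2 members were higher (Cyr61 and Yap1) and 2 lower (Ctgf and Ankrd1), where 16.8% and 13.1% of all tested genes were, so these separations are not unusual for genes in this comparison. That of Yap1 was very narrow, with 9.22 FPKM in vehicle replicate 1 and 9.221 in oligomycin A replicate 1. The interval of Ctgf ran from -0.60 to 0.18.

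No regulator or co-activator was called. Ajuba was 5.50, 4.89 and 5.82 FPKM with vehicle and 5.11, 4.74 and 4.50 with oligomycin A, at -0.15 ± 0.07 (limma adjusted p = 0.22). Amotl1, Amotl2, Lats2, Yap1, Wwtr1 and Tead1 had log2 fold changes between 0.07 and 0.08 with adjusted p from 0.448 to 0.789 in limma. Of their vehicle values, that of replicate 2 was the lowest for each gene but Lats2. With single libraries left out in turn, the lowest fold changes were -0.02 for Amotl1, -0.06 for Lats2 and -0.01 for Tead1. Those of Amotl2, Yap1 and Wwtr1 were 0.03, 0.05 and 0.01. Yap1, at 8.98 ± 0.30 and 9.51 ± 0.31 FPKM (SD, n = 3 each), had an interval from -0.04 to 0.19, and Wwtr1 from -0.11 to 0.25. The median of the 10 members was 0.07, and that of all tested genes 0.00.

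**Figure D2:**
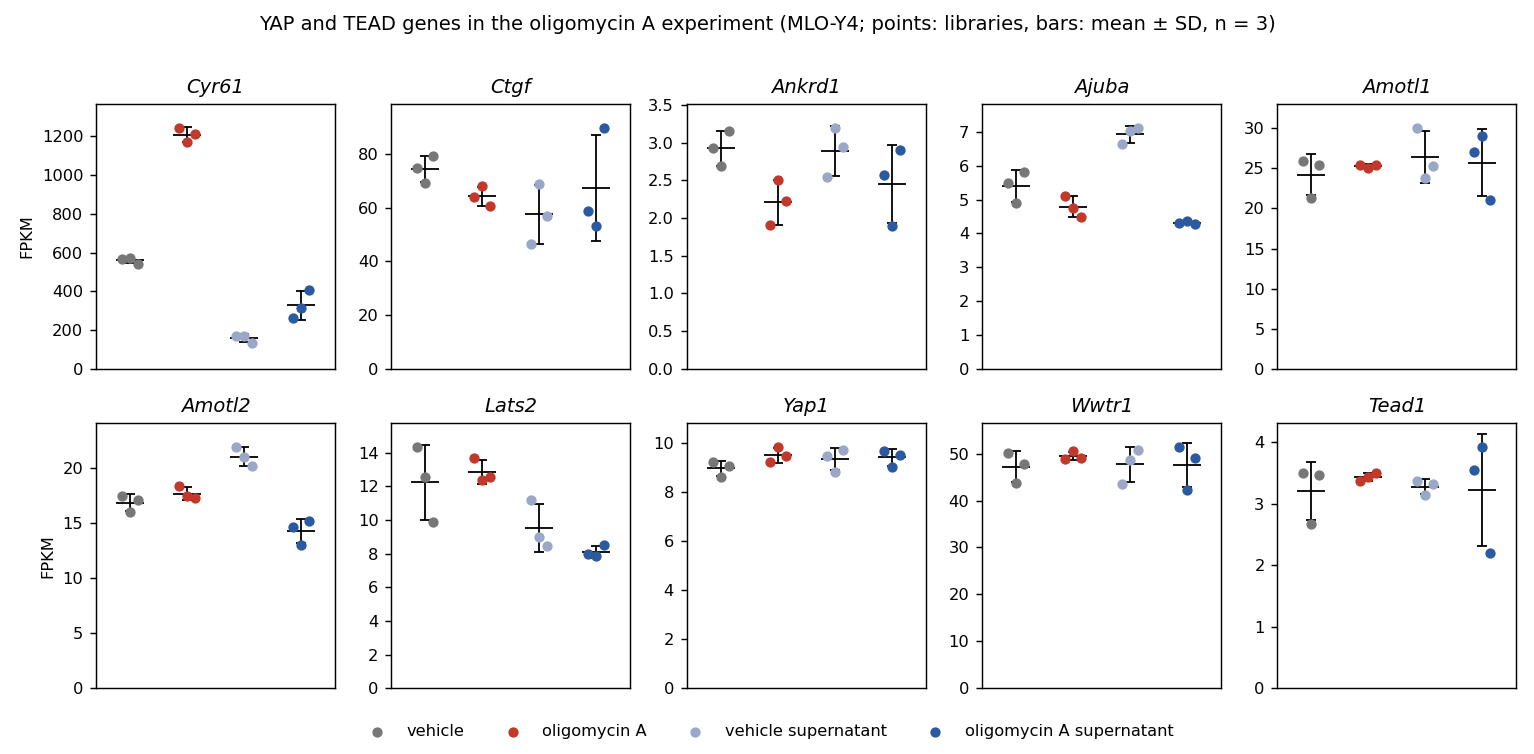
FPKM (linear axes from 0, one scale per gene) of the 10 genes in the 4 groups of the oligomycin A experiment; points are libraries and black bars the mean ± SD of 3. Cyr61 runs from 135 to 1244 FPKM, Ajuba and Amotl2 are highest with vehicle supernatant and lowest with oligomycin A supernatant, and Yap1 stays between 8.64 and 9.84 FPKM.

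Cells that received supernatant of treated cells were compared with cells that received supernatant of vehicle cells, which asks whether treated cells pass something on to others through the medium; removal of the drug from the medium is not stated in the protocol. Here the members differed in opposite directions. Cyr61 was 169, 171 and 135 FPKM with vehicle supernatant and 262, 312 and 408 FPKM with oligomycin A supernatant. The groups did not overlap, and the log2 fold change was 1.02 ± 0.14 (SE), with the recipients of treated medium spread more widely (SD 74.6 FPKM) than their controls (SD 20.1).

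Ajuba and Amotl2 were lower. Ajuba was 6.64, 7.03 and 7.12 FPKM with vehicle supernatant and 4.31, 4.37 and 4.27 with oligomycin A supernatant, a log2 fold change of -0.58 ± 0.07 (SE). Amotl2, the angiomotin relative that binds YAP, was 21.9, 21.1 and 20.2 FPKM and then 14.7, 13.1 and 15.2, at -0.53 ± 0.06. Neither gene had a library that crossed between the groups. By the same limma threshold 1 of 10 members was called higher and 2 lower, beside 0.277% and 0.109% of all genes. Groups were separate for the same 3 members, beside 6.65% of all genes higher and 6.49% lower. Because these 3 genes were picked from this comparison, nothing is read from the counts. The calls also depended on the fit: Cyr61 was not called when low genes were kept in or when just the 6 recipient libraries were fitted, Amotl2 was not called in the latter, and neither Ajuba nor Amotl2 was called with all libraries scaled to the same total.

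The remaining members overlapped between the recipient groups. Ctgf was 46.7, 68.8 and 57.0 FPKM with vehicle supernatant and 58.9, 53.1 and 89.8 with oligomycin A supernatant (0.20 ± 0.18 on the log2 scale); a single library, oligomycin A supernatant replicate 3, was high, and without it the value was -0.02. The same library had the highest Cyr61 value and the lowest Tead1, 2.20 FPKM against 3.15 to 3.92 in the other 5. Without it the log2 fold change of Cyr61 was the lowest of the omissions, 0.85. Lats2 was 11.2, 9.03 and 8.47 FPKM and then 7.98, 7.86 and 8.51, at -0.20 ± 0.12, and Ankrd1 was at -0.18 ± 0.12. Amotl1, the other angiomotin relative among the members, was at -0.04 ± 0.12 where Amotl2 was at -0.53. Yap1, Wwtr1 and Tead1 were at 0.01, -0.01 and -0.04.

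**Figure D3:**
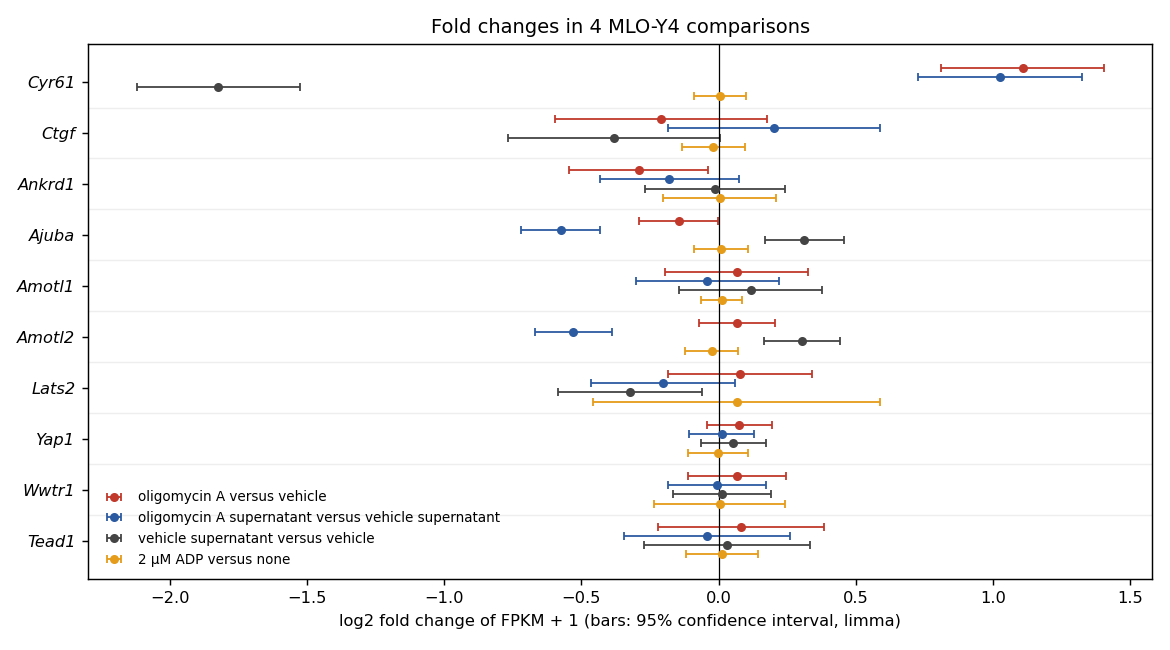
Log2 fold changes of FPKM + 1 (horizontal axis) with 95% confidence intervals from limma for the 10 genes in 4 MLO-Y4 comparisons, each in its own colour; n = 3 libraries per group. Cyr61 lies near 1 in both oligomycin A comparisons and near -1.82 between the control groups, Ajuba and Amotl2 lie on the opposite side of 0 from Cyr61 in both supernatant comparisons, and all 10 points for ADP lie between -0.03 and 0.06.

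The control groups also differed: vehicle supernatant recipients had 2 h with used medium, and vehicle cells 1 h with fresh medium, so duration and medium cannot be told apart. Cyr61 was lower in the recipients, with a log2 fold change of -1.82 ± 0.14 (SE), from 561 ± 15.8 to 158 ± 20.1 FPKM (SD, n = 3 each). It was -1.81 without vehicle replicate 2. Ajuba was higher, at 6.93 ± 0.26 against 5.40 ± 0.47 FPKM (log2 fold change 0.31 ± 0.07), and so was Amotl2, at 21.1 ± 0.85 against 16.9 ± 0.77 FPKM (0.30 ± 0.06). By the limma threshold 2 of the 10 members were called higher and 1 lower, beside 9.49% and 5.18% of all genes. Cyr61 was picked by this difference, and Ajuba and Amotl2 by a comparison that holds the same vehicle supernatant libraries, so nothing is read from these counts either. Without overlap 2 were higher and 2 lower (Cyr61 and Ctgf), beside 21.6% and 12.6% of all genes. Ctgf was at -0.38 ± 0.18 and Lats2, with 9.55 ± 1.43 against 12.3 ± 2.23 FPKM, at -0.32 ± 0.12; neither was called. Scaled to the same total, neither Ajuba nor Amotl2 was called, with just the 6 libraries fitted Ajuba was not, and without vehicle replicate 3 Lats2 was, at -0.46. Amotl1, Yap1, Wwtr1, Tead1 and Ankrd1 were between -0.01 and 0.12.

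Whether the members move together can be read from these values side by side. The sign was opposite for Cyr61 and for the pair of Ajuba and Amotl2 in both supernatant comparisons, but these share the vehicle supernatant libraries and are not separate evidence. In direct treatment, where Cyr61 rose, Ajuba was at -0.15 and Amotl2 at 0.07. As a difference of responses, recipients minus treated cells, Amotl2 was at -0.60 ± 0.09 (SE), Ajuba at -0.43 ± 0.09 and Cyr61 at -0.08 ± 0.19, and exposure lasted 2 h in one and 1 h in the other. Ctgf was at 0.41 ± 0.25, and the other 6 members lay between -0.28 and 0.11. Cyr61, Ajuba and Amotl2 were picked by the recipient response, which is part of this difference, so nothing is read from their values. The ratio of Amotl2 to Ajuba within a library was 2.95 to 3.27 with vehicle and 3.598 to 3.845 with oligomycin A, without overlap. It was 2.84 to 3.30 with vehicle supernatant and 2.99 to 3.56 with oligomycin A supernatant, where the ranges overlapped and where both genes had been picked because they were lower.

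Cyr61 and Ctgf, which are commonly read as a pair for YAP activity, did not keep a fixed ratio. Cyr61 over Ctgf was 6.86 to 8.27 with vehicle, 17.2 to 19.96 with oligomycin A, 2.37 to 3.62 with vehicle supernatant and 4.44 to 5.87 with oligomycin A supernatant. None of these 4 ranges overlap. The groups fall in the same order as for Cyr61 itself, with oligomycin A highest and vehicle supernatant lowest. Cyr61 was picked by its values in the supernatant groups and with vehicle, so nothing is read from the separation of those groups. How often other pairs of genes separate in this way was not measured. Without ADP the ratio was 2.12 to 2.23, and with 2 µM ADP 2.16 to 2.28. It was below 1 in all 6 young bone libraries, between 0.56 and 0.99, and 1.34 to 1.63 in old cortical bone.

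**Figure D4:**
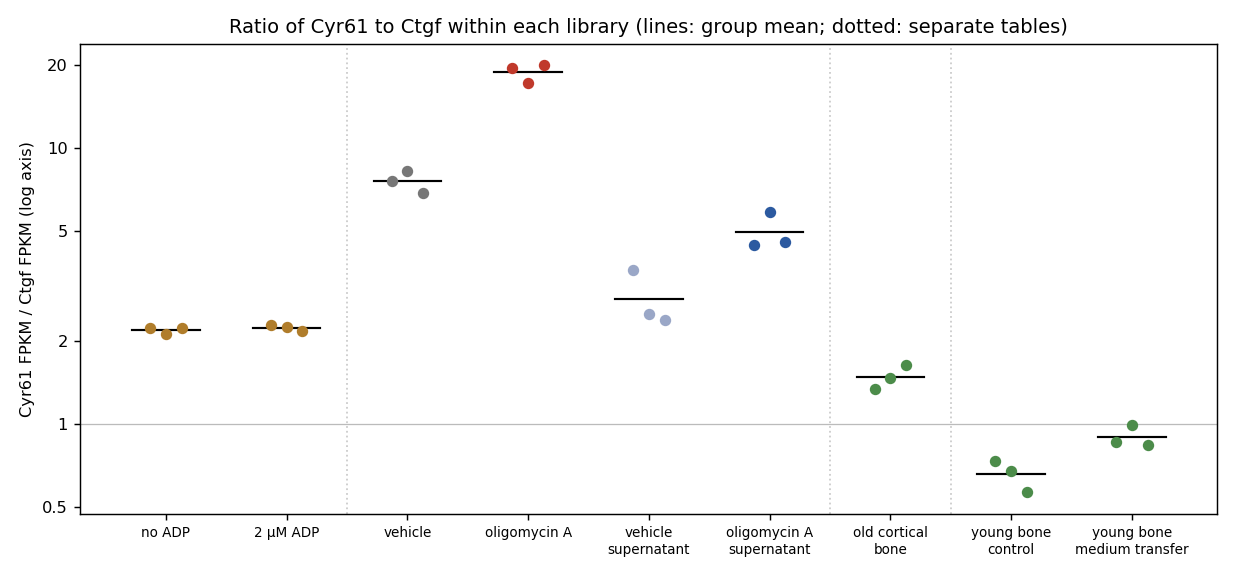
Cyr61 FPKM divided by Ctgf FPKM in each of the 27 libraries (points; log axis), with the mean of each group of 3 as a line; dotted lines divide tables that were made separately. The ratio lies between 17.2 and 19.96 with oligomycin A and below 1 in the 6 young bone libraries.

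Genes whose group means followed Cyr61 most closely were sought among 10470 genes over the 4 groups of the oligomycin experiment, by the Euclidean distance of centred log2(FPKM + 1). Klf2, a flow-responsive transcription factor gene, was nearest (distance 0.44), followed by the AP-1 gene Fosb (0.46), the chaperone gene Dnajb1 (0.58), the nuclear receptor gene Nr4a1 (0.59) and the AP-1 gene Junb (0.77). Fosb, for example, averaged 15.6 FPKM with vehicle, 43.1 with oligomycin A, 6.32 with vehicle supernatant and 11.1 with oligomycin A supernatant. Among the members Lats2 came nearest to Cyr61 at rank 385, but at a distance of 1.80, far beyond the 0.44 of Klf2. Ctgf was at rank 1819 (2.01) and Ajuba at rank 9532 (2.43). Wwtr1 and Tead1, whose means hardly differed among the 4 groups, were both at 2.11, so ranks near that distance say little about likeness to Cyr61. For Ajuba the nearest genes were Prkar2b, a regulatory subunit of protein kinase A (0.07), Taf5l (0.09), the autophagy gene Uvrag (0.11), Camp (0.12) and Apc-ps1 (0.13), the last a pseudogene whose reads may belong to a similar gene. Amotl2 was at rank 19 for Ajuba, Ankrd1 at rank 280 and Cyr61 at rank 10458. The 4 group means hold the differences by which Cyr61, Ajuba and Amotl2 were picked, so the nearness of Ajuba to Amotl2 and its distance from Cyr61 follow from that choice. The distances describe likeness only.

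ADP, a ligand of purinergic receptors, left no member called. Cyr61 was 278, 262 and 265 FPKM without ADP and 272, 258 and 279 with 2 µM ADP. The groups overlapped, and the log2 fold change of 0.01 ± 0.04 (SE) had an interval from -0.09 to 0.10 (limma adjusted p = 0.993). Ctgf was 125, 124 and 120 FPKM and then 119, 115 and 129 (-0.02, interval -0.13 to 0.09). Over the 10 members log2 fold changes ran from -0.03 to 0.06 with limma adjusted p from 0.943 to 1.0. Here 0 of 10 were called, beside 0.0603% of 11604 genes in either direction, and 0 of 10 were without overlap, beside 10.6% of genes. Lats2 had the widest spread, with 11.4, 12.04 and 11.4 FPKM without ADP and 16.6, 8.37 and 12.9 with it, and its interval of -0.46 to 0.59 leaves its direction unknown. The interval of Amotl2 was -0.12 to 0.07 and that of Ajuba -0.09 to 0.11. They are not set against the changes between the recipient groups, which come from a separate experiment and by which both genes were picked. The intervals cover only the scatter among these libraries.

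In young bone fragments the level of the 10 genes followed the library more than the group. Cyr61 was 47.7, 41.1 and 45.9 FPKM in controls and 56.6, 308 and 31.7 after medium transfer. Ctgf was 65.0, 61.1 and 81.4 FPKM in controls and 66.2, 312 and 37.7 after transfer. For both genes transfer replicate 2 was far above all other libraries and transfer replicate 3 below them. Log2 fold changes of the 10 members were all positive, from 0.22 for Amotl2 to 0.87 ± 0.92 (SE) for Cyr61, but the median of all tested genes was 0.45 and that of the members 0.50. None of the 10 was called (limma adjusted p 0.900 to 0.919), beside 0.0243% of 16438 genes. Only Ankrd1 was without overlap, at 0.659, 0.858 and 0.625 FPKM in controls and 2.16, 2.23 and 1.05 after transfer, beside 4.08% of all genes in either direction. Ranked among the genes above 0 in its library, it did overlap, at percentile 57.9 in transfer replicate 1 and 59.1 in control replicate 2. Transfer replicate 1 had 27280 genes at 1 FPKM or more, and the controls 11335 to 15513.

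The libraries of young bone differed in make-up. Satellite-like predicted genes held 86.0%, 88.5% and 81.6% of summed FPKM in controls and 66.0%, 5.78% and 89.8% after transfer. What these shares do to the FPKM of other genes was not tested. Osteoclast markers summed to 693 to 863 FPKM in controls and to 1224, 4939 and 797 after transfer, and osteoblast markers to 25620 to 42620 FPKM and to 42540, 107600 and 18950; all 9 osteoblast markers were at 1 FPKM or more in all 6 libraries. Endothelial markers summed to 6.98 to 9.29 FPKM in controls and 17.1, 40.3 and 5.64 after transfer. Transfer replicate 2 was highest in the sum of every marker list measured except those of adipocytes and chondrocytes. Erythroid markers summed to 3838 to 8062 FPKM in controls and 10510, 20880 and 12070 after transfer, and adipocyte markers to 3.75 to 5.40 and 46.98, 11.5 and 95.9. These lists were higher in every transfer library than in every control, and for adipocyte markers replicate 2 was the lowest of the transfer libraries. The part of make-up in the values was not tested. In bulk tissue, fewer cells of a type and less RNA per cell cannot be told apart. Measured from each gene's median over the 6 libraries, the median member deviated by 0.65, 1.22 and -0.54 in the transfer libraries, and the median of all genes by 0.73, 0.63 and -0.33. Without transfer replicate 2 the log2 fold change of Cyr61 was -0.08 and that of Ctgf -0.45. With median-of-ratios scaling, where the median of all genes was 0.08, Cyr61 was at 0.35, Ctgf at -0.09 and Amotl2 at -0.14, so the common positive sign does not hold under another scaling.

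**Figure D5:**
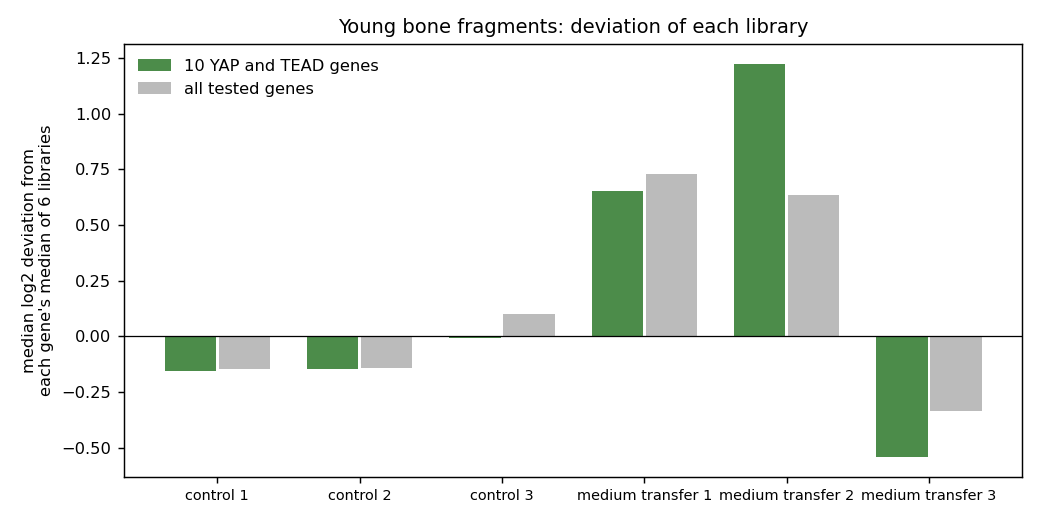
Median log2 deviation of each young bone library from each gene's median over the 6 libraries (bars from 0), for the 10 genes in green and all 16438 tested genes in grey. Transfer replicates 1 and 2 lie above 0 and transfer replicate 3 below 0 in both sets, and only in transfer replicate 2 is the green bar much higher than the grey one, 1.22 against 0.63.

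Old cortical bone had the lowest group means of the series for all members but Lats2. Cyr61 was 5.91, 11.9 and 8.94 FPKM, Ctgf 4.43, 8.14 and 5.49, and Wwtr1 2.60, 4.09 and 3.06. Lats2 was 1.67, 1.69 and 1.44 FPKM, within the range of young bone. The other 6 averaged at most 0.30 FPKM, and Ankrd1 was listed at 0 in 2 of the 3 libraries and at 0.0026 in the other. Erythroid markers summed to 356500 to 379000 FPKM there and neutrophil markers to 98160 to 103700, against 3838 to 20880 and 299.5 to 1391 in young bone, and the protocol as worded does not say plainly whether marrow was removed. The part of these cells in the low levels was not tested. The 7 osteocyte markers summed to 43.5, 205.5 and 41.3 FPKM in old bone and to 295 to 1737 FPKM in young bone. Dmp1 was 10.9 to 43.9 FPKM and Mepe 25.0 to 147.8 FPKM in old bone, both below every young library. Sost was not lower, at 1.82, 7.15 and 0.68 FPKM against 0.83 to 2.66 in young bone. As old and young bone stand in separate tables, no test was made between them.

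Other genes of the pathway were taken from short lists drawn from general knowledge, and no list was tested as a whole. The lists were chosen with earlier results of these data known. Their counts stand beside the shares of all genes called, which were 3.71% higher and 1.63% lower in treated cells, 0.277% and 0.109% in recipients, and 9.49% and 5.18% between the control groups. Of 17 measured Hippo kinases and regulators, 0 were called in treated cells and 0 in recipients, with medians of 0.04 and -0.01 against 0.00 and 0.00 for all genes. Between the control groups 1 was lower, the phosphatase gene Ptpn14 (-0.26 ± 0.07). Of 4 measured TEAD and VGLL factors Vgll4, whose product competes with YAP for TEAD, rose in treated cells by 0.32 ± 0.08 (limma adjusted p = 0.0418), and 0 were called in recipients or between the control groups. Of 12 measured genes of a published YAP target signature 2 rose in treated cells, the DNA damage-inducible gene Gadd45a by 1.53 ± 0.21, from 12.9 ± 2.67 to 39.4 ± 7.21 FPKM, and F3, tissue factor, by 0.55 ± 0.10; the median was 0.13. In recipients 0 of these 12 were called, with Gadd45a at 0.98 ± 0.21 and F3 at 0.52 ± 0.10. Between the control groups F3 (0.57 ± 0.10) and Nt5e (0.39 ± 0.08) were called higher and Ptpn14 and Arhgef17 (-0.28 ± 0.07) lower.

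The relatives of Cyr61 and Ctgf were called only between the control groups. Of 3 measured further CCN family genes 0 were called in treated cells or in recipients, and Wisp1, Wisp2 and Nov lay between -0.03 and 0.00 in treated cells. Between the control groups, where Cyr61 was lower by 1.82, Wisp1 and Nov were higher, at 0.51 ± 0.12 and 0.42 ± 0.11. Of 9 measured SRF and actin targets, Actb and Actg1, the cytoplasmic actins, rose in treated cells by 0.29 ± 0.06 and 0.24 ± 0.06. Their limma adjusted p was 0.0287 and 0.0449, and calls of list genes were not tried under other settings. Of these targets 0 were called in recipients. Vcl, vinculin, was higher by 0.65 ± 0.07 in vehicle supernatant recipients than in vehicle cells. Immediate early genes are the rapid transcriptional response to stimuli. Of 15 measured, 14 rose in treated cells (median 1.89), 7 were higher in recipients (median 0.47) and 14 were lower in vehicle supernatant recipients than in vehicle cells (median -0.83), with 0 called in the opposite direction in each. Cyr61 was picked by its direction in the latter comparisons, so only in treated cells is its rise set beside theirs. The comparison of treated cells shares its vehicle libraries with that of the control groups. As this list was chosen with earlier results of these data known, nothing is read from its counts. With ADP and in young bone 0 genes of any of these lists were called.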

How the data were processed

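Per the labels' protocols, libraries were made from poly(A)-selected RNA. The deposited values are the authors' FPKM, in 4 tables. HTSeq and mm10 appear in the submitters' processing notes without a stated role, and the tool that made the FPKM values, its strandedness and the treatment of overlapping genes are not given in the sources used here. Ctgf, Amotl1, Lats2, Yap1, Wwtr1 and Tead1 overlap other annotated genes, so their values may hold reads of those. Groups came from sample titles. The treatment label of vehicle samples also names oligomycin A, and it gives 50 mM, the stock concentration.

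Members, gene lists and tests were chosen with earlier results of these data known. log2(FPKM + 1) was fitted with limma 3.58.1 in R 4.3.3 (trended variance prior, genes with mean FPKM of at least 1, Benjamini-Hochberg over all genes, threshold 0.05), with 1 fit over the 12 libraries of the oligomycin experiment and 1 for each pair of groups elsewhere. Fold changes refer to log2(FPKM + 1) and so understate those of low genes. The fit was tested on simulated data. Counts could not be recovered: in MLO-Y4 42.4% to 47.6% of low values were whole within 0.1 fragment, and in bone 23.9% to 31.5%. Depth in young bone was near 1.62 to 6.68 M fragments. No pair of libraries shared more than 0.021% of values. Named genes were all members, up to 4 called genes of each list and comparison by p, and the 5 genes nearest to Cyr61 and to Ajuba. GENCODE M21 gave positions, and Python 3.11.15 with pandas 2.3.3 the levels and motifs.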

Additional observations from a re-analysis of the deposited data

How the results depend on the processing

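Cyr61 passed in treated cells under all 15 alternatives, with a log2 fold change of 1.08 to 1.26 (limma adjusted p 1.36e-05 to 0.00749), and no other member did. These alternatives all hold vehicle libraries that took part in picking Cyr61. With ADP and in young bone 0 members were called under any of the 14 alternatives. The described comparisons were less stable. In recipients the number of members higher became 0 with no filter on low values and when just the 6 recipient libraries were fitted. The number lower became 0 with all libraries scaled to the same total FPKM and 1, Ajuba, with just the 6 fitted. Between the control groups the number higher became 0 with the same total and 1, Amotl2, with only the 6 libraries, and the number lower became 2 without vehicle replicate 3, where Lats2 was added at -0.46; the range over omitted libraries was 1 to 2. The cause was not tested. No called value changed sign. Scaling to the same total shifted the all-gene median to 0.12 in treated cells, 0.14 between the control groups and 0.80 in young bone. Over the alternatives, genes called numbered 265 to 1226 in treated cells, 7 to 85 in recipients, 586 to 2208 between the control groups, 0 to 40 with ADP and 0 to 7 in young bone. The split in treated cells, 442 higher and 194 lower in the fit reported, was 256 higher and 19 lower with the same total, 704 and 522 with quantile normalization, and 286 and 366 without vehicle replicate 2. In recipients, against 33 and 13, it was 53 and 32 with quantile normalization and 2 and 5 with just the 6 recipient libraries fitted, and between the control groups, against 1129 and 617, it was 1120 and 1088 with quantile normalization, 1178 and 1026 when scaled by median of ratios, 484 and 102 with the same total and 628 and 731 without vehicle replicate 2. Same-numbered replicates did not deviate together (correlations -0.228 to 0.0587). No sign of pairing was seen, but this does not show that samples were unpaired. With a replicate block 434, 28, 1460, 0 and 2 genes passed in the same order, and the members called did not change in number.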
